A study of Mus musculus with 14 samples.

Results

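The 10 genes described here are receptors, ligands and target genes of the Notch pathway: the receptors Notch1, Notch2 and Notch3, the ligands Dll1 and Jag1, and the transcriptional repressors Hes1, Hes5, Hey1, Hey2 and Heyl. They were matched by gene name in the 2 count tables of the study, which list 26570 genes (basal experiment) and 25933 genes (learning experiment), and all 10 were found once in each table and passed the filter on low counts in both. The set was chosen by a readout of these data, the lower level of Heyl after training in WT mice, so that comparison is given for the members as a description without a test.

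Notch is a single-pass receptor that is activated by ligands on the surface of a neighbouring cell. Ligand binding leads to cleavage by an ADAM protease and then by gamma-secretase, and the freed intracellular domain enters the nucleus, binds the DNA-binding protein RBPJ and, with a Mastermind protein and histone acetyltransferases such as CBP and p300, switches on repressor genes of the Hes and Hey families. In the adult hippocampus the pathway is known for keeping the neural stem cells of the dentate gyrus quiescent, it is active in astrocytes, and Notch3 and Heyl are characteristic of the mural cells (pericytes and smooth muscle) of blood vessels.

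The data are 14 RNA-seq libraries in 6 groups, from dorsal hippocampi of male C57BL6 mice aged 8 months. The basal experiment holds untrained WT mice (WT basal, n = 3) and THY-Tau22 mice (THY-Tau22 basal, n = 2), for which the labels name no treatment. THY-Tau22 mice carry a mutated human Tau transgene in the heterozygous state under the Thy1.2 promoter, which drives it in neurons. The learning experiment holds WT mice given saline and left in the home cage (WT VEH_HC, n = 3), WT mice given saline and trained in a spatial memory task, the Morris water maze (WT VEH, n = 2), trained THY-Tau22 mice given the carrier, carbon nanospheres named CSP (TAU VEH, n = 2), and trained THY-Tau22 mice given CSP-TTK21, the carrier bearing an activator of the acetyltransferases CBP and p300 (TAU MOL, n = 2). Trained WT and trained THY-Tau22 mice therefore differ in genotype and in the injected vehicle, and these cannot be told apart. The labels number the libraries within a group without naming the animal, so that p-values measure the spread between these libraries.

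Libraries of the learning experiment held 24693713 to 52180305 counts on genes and basal libraries 28639121 to 37681155. Each member had between 61 and 2549 counts in every library. Levels are given as CPM, a library's count for the gene relative to its total, with TMM scaling within each experiment. A gene was called where its log2 fold change exceeded 0.2 in size and its p, from the quasi-likelihood test of edgeR adjusted over all genes tested by the Benjamini-Hochberg method, was below 0.05. The 8 markers of dorsal hippocampal neurons summed to between 900 and 1368 CPM per library, none of them at 0. The WT VEH libraries stood apart in markers of the choroid plexus, the secretory tissue of the brain ventricles. Its 14 markers summed to 2455 and 1594 CPM there, against 80.6 to 238 CPM in WT VEH_HC, 241 and 288 CPM in TAU VEH and 718 and 785 CPM in TAU MOL, and 1 basal library, THY-Tau22 replicate 2, reached 1326 CPM against 274 to 441 CPM in the other 4. The libraries also differed in how counts depended on the GC content of genes. Correlating GC content over genes with the log ratio of each library to its experiment's average gave a Spearman's rho of 0.414 to 0.455 in WT VEH_HC, 0.0848 and 0.275 in WT VEH, -0.617 and -0.410 in TAU VEH, -0.396 and -0.472 in TAU MOL, and from -0.600 to 0.481 in the basal libraries.

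Per kilobase of exon, which allows levels to be compared between genes, Hey1 was the most abundant member in each of the 14 libraries, at 19.1 to 27.2 CPM per kb. Hes5 (3.61 to 6.86), Hes1 (3.90 to 5.43) and Notch2 (3.22 to 5.52 CPM per kb) came next and overlapped with each other. Notch1 ran from 1.36 to 3.09, Notch3 from 1.14 to 2.81 and Dll1 from 1.11 to 1.85 CPM per kb, again overlapping. The lowest levels were those of Hey2 (0.628 to 1.54), Jag1 (0.686 to 1.42) and Heyl (0.513 to 1.61 CPM per kb). In all groups but WT VEH_HC, Heyl had the lowest mean of the 10.

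Heyl lies on chromosome 4 of mm9 from 122910799 to 122927118 on the plus strand (ENSMUSG00000032744). In the home cage it had 5.29, 8.26 and 5.38 CPM in WT VEH_HC replicates 1, 2 and 3, and after training 2.83 and 2.62 CPM in the WT VEH libraries. All 3 home cage libraries lay above both trained libraries, a log2 fold change of -1.21 (standard error 0.20), or 0.431-fold. Of all genes tested, 3.05% were called lower and 5.35% higher in this comparison, from which nothing is read for a gene chosen on it. The level was 2.76 and 2.68 CPM in the TAU VEH libraries and 2.67 and 2.82 CPM in the TAU MOL libraries, so that the 6 trained libraries, whatever their genotype or treatment, sat between 2.62 and 2.83 CPM. In the basal experiment, whose table was scaled separately, untrained WT mice had 2.70, 3.28 and 3.65 CPM and untrained THY-Tau22 mice 4.81 and 2.86 CPM. The untrained WT libraries of the basal experiment were thus closer in value to the trained libraries than to the home cage libraries of the learning experiment, and all 5 basal values lay below the lowest home cage value.

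**Figure D1:**
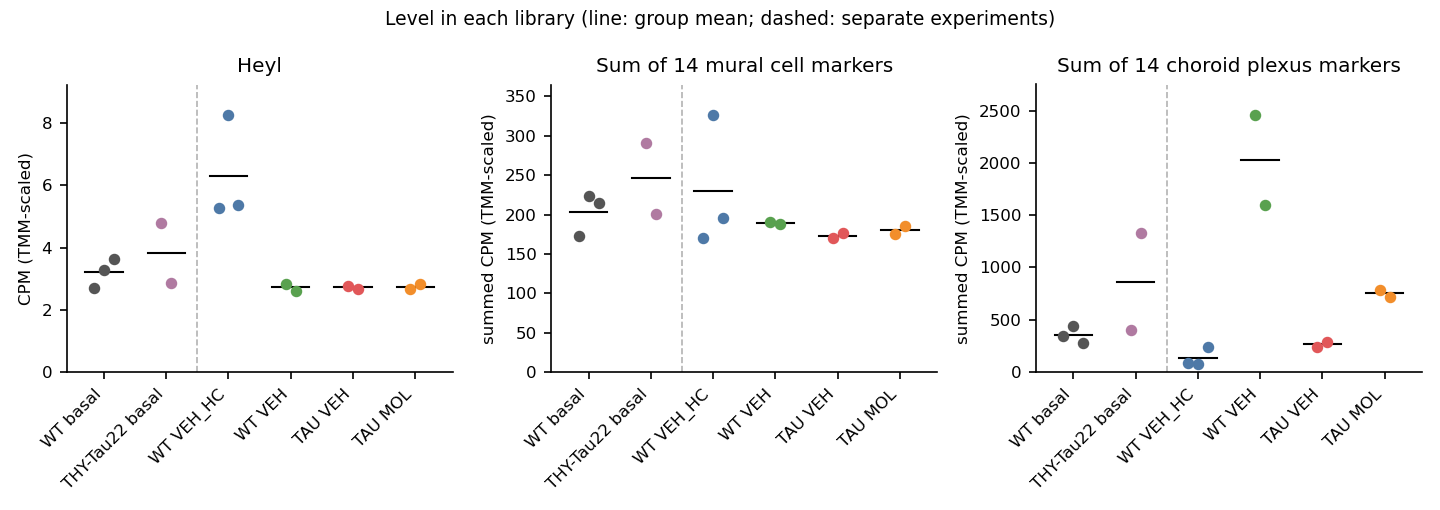
Heyl (left, CPM), the summed level of 14 mural cell markers (middle, CPM) and of 14 choroid plexus markers (right, CPM) in each of the 14 libraries. Points are libraries, lines are group means and the dashed line separates the basal from the learning experiment. Heyl is high in the 3 WT VEH_HC libraries and lies between 2.62 and 2.83 CPM in the 6 trained libraries, while choroid plexus markers are high in WT VEH.

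The levels of 14 markers of mural cells, the vessel cells that express Heyl, summed to 170, 326 and 195 CPM in WT VEH_HC replicates 1, 2 and 3 and to 190 and 188 CPM in WT VEH, so the groups overlapped. Of the 14 markers 10 were lower and 4 higher after training, with 0 called. WT VEH_HC replicate 2 had both the highest Heyl and the highest mural sum, and without it the log2 fold change of Heyl was -0.97. In the basal experiment, THY-Tau22 replicate 1 had the highest Heyl (4.81 CPM) and the highest mural sum (291 CPM, against 173 to 224 CPM in the other 4 libraries). In bulk tissue, fewer cells of a type and less RNA per cell cannot be told apart. All 14 choroid plexus markers were called higher after training in WT, and with the choroid plexus score as a covariate, which is nearly confounded with the groups, the log2 fold change of Heyl was -0.33 (standard error 0.67). Correcting for GC content and exon length left it at -1.14.

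Over the 9 learning libraries, the 5 genes whose log2 CPM followed Heyl most closely, of 13548 compared, were Def8 (Pearson r = 0.9761), Gm16551 (r = 0.9757), Nmnat2 (r = 0.9749), Arhgef7 (r = 0.9748) and Usp10 (r = 0.9726). The 9 points share libraries, depth and GC dependence, and fall into 3 home cage libraries against 6 trained ones. Genes chosen in this way share the pattern of Heyl by construction. As a description, Nmnat2, which makes NAD, had 191 to 220 CPM there against 162 to 173 CPM in the trained libraries, and Arhgef7, an exchange factor for small GTPases, had 158 to 179 CPM against 135 to 144 CPM. Among the other members, r with Heyl ran from -0.548 for Hey2 to 0.702 for Hes5, and Hes5 ranked 2171 among the genes compared.

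The log2 fold changes of the other 9 members between trained and home cage WT mice lay between -0.11 (Jag1) and 0.54 (Hey2), and the median over the 10 members was -0.01, against -0.003 over all genes. Hey2, which specifies arterial identity had 3.34 and 2.33 CPM in WT VEH and 1.60, 2.22 and 2.02 CPM in WT VEH_HC, higher after training without overlap, opposite in direction to Heyl. Hey1, a repressor of the same family and the most abundant member, had 47.1 and 50.6 CPM after training and 42.1, 45.8 and 47.0 CPM in the home cage, a narrow separation of the groups with a log2 fold change of 0.12 (standard error 0.07). Groups did not overlap for 3 of the 10 members, Heyl, Hey1 and Hey2, and for 43.8% of all genes. The receptors had log2 fold changes of -0.09 for Notch1, 0.01 for Notch2 and -0.03 for Notch3 (standard errors 0.08, 0.11 and 0.15).

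**Figure D2:**
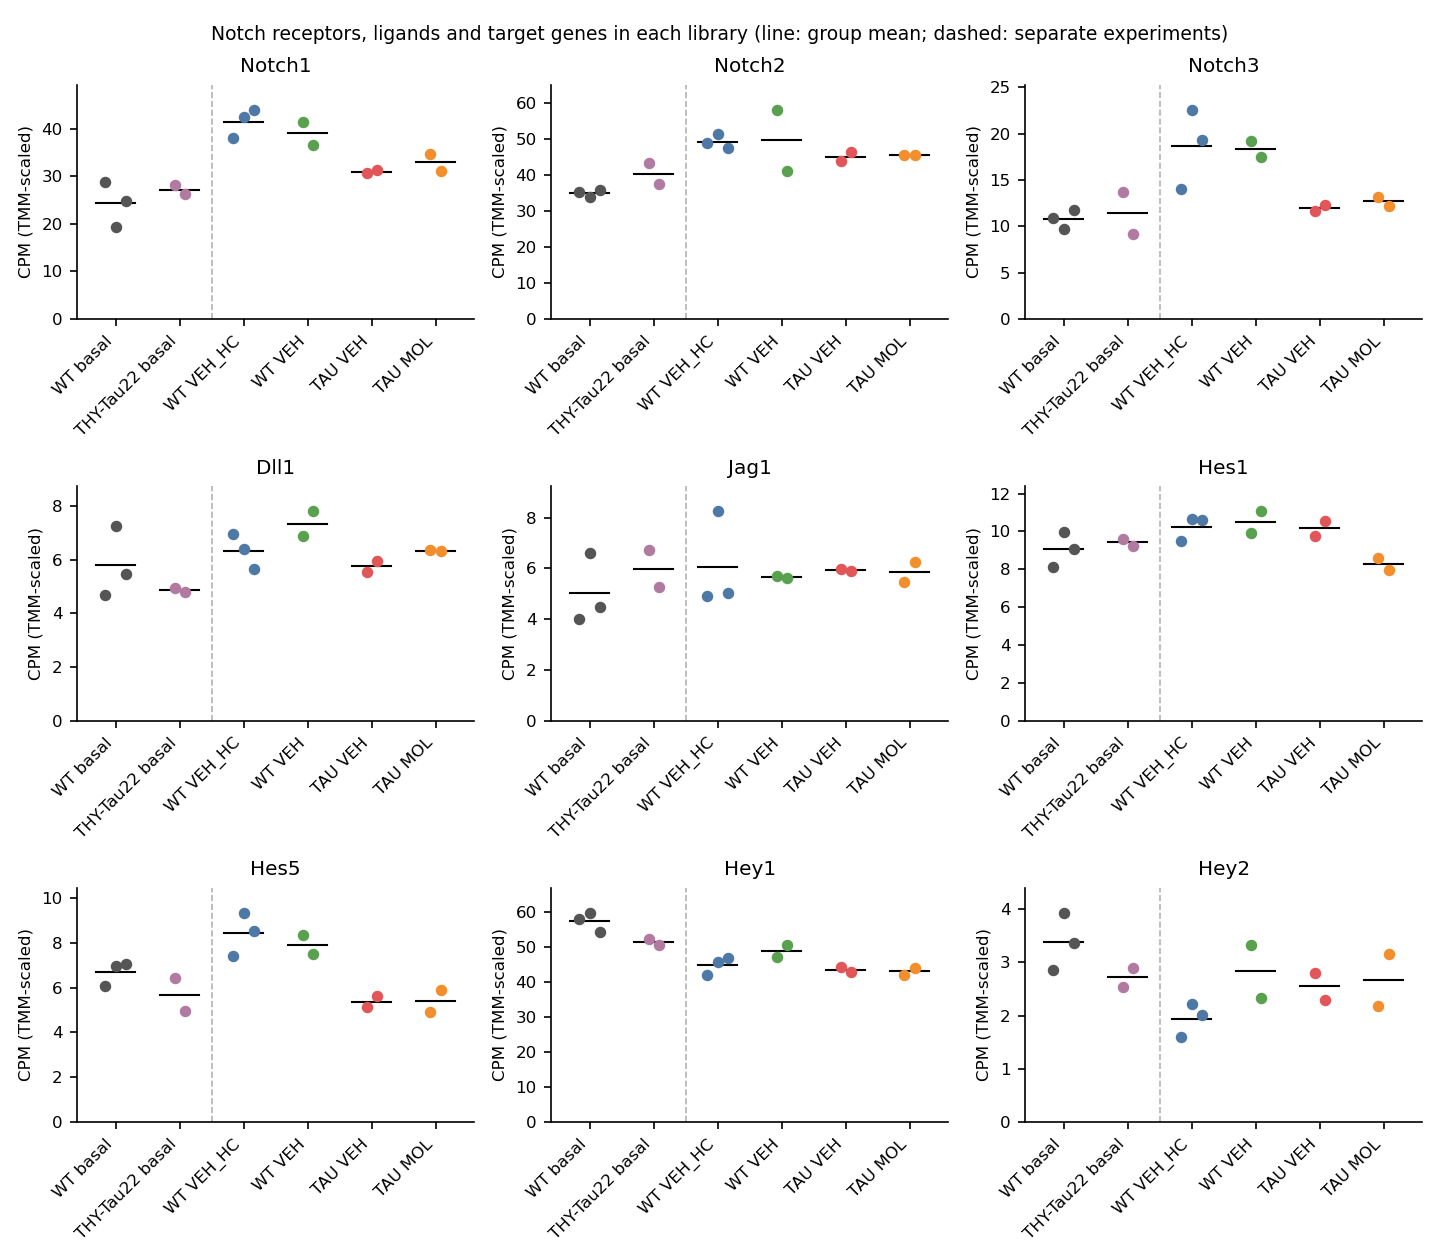
CPM of the other 9 members in each of the 14 libraries. Points are libraries, lines are group means and the dashed line separates the basal from the learning experiment. Both THY-Tau22 groups of the learning experiment lie below WT VEH for Hes5 and Notch3, with Notch3 at 11.6 to 13.2 CPM in the 4 THY-Tau22 libraries against 17.5 and 19.2 CPM.

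Sequence upstream of the gene start was taken from a set of RefSeq promoter windows (GRCm38.p6). The set used held 7 of the 10 members: Hey2, Hes5, Notch1, Notch2, Notch3, Dll1 and Jag1. Heyl, Hey1 and Hes1 had no window in this set. The 250 bases before the start were searched on both strands for GTGGGAA, the core letters of an RBPJ site, which 5.42% of 32851 windows hold, and for the E-box CACGTG, a form of E-box that Hey proteins can bind, which 6.02% hold. Hes5 held 2 RBPJ matches, 76 and 219 bases before the start, and Hey2 held 1, 200 bases before it, while no member window held CACGTG. The Hes5 and Hey2 windows are shown for these matches, with their letters in capitals, and the Notch1 and Notch3 windows because these genes were called together with Hes5 in trained THY-Tau22 mice. All run 5′ to 3′ on the strand of the gene and end at the base before its start. The positions are chr4:154960673-154960922 (plus strand) for Hes5, chr10:30842784-30843033 (minus) for Hey2, chr2:26503823-26504072 (minus) for Notch1 and chr17:32166891-32167140 (minus) for Notch3.
Hes5: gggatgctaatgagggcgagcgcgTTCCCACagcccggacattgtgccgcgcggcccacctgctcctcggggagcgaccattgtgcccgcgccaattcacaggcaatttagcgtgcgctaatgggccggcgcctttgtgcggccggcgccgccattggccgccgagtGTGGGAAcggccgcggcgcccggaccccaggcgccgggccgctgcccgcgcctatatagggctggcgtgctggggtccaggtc
Hey2: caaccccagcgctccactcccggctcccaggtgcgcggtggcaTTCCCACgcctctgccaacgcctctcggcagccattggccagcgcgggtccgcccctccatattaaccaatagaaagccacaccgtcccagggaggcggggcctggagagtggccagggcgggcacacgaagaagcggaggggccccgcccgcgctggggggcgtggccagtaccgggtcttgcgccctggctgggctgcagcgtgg
Notch1: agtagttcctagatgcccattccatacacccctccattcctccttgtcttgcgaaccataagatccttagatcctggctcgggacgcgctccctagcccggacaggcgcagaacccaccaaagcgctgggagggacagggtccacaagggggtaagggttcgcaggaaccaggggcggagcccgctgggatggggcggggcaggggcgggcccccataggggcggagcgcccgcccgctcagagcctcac
Notch3: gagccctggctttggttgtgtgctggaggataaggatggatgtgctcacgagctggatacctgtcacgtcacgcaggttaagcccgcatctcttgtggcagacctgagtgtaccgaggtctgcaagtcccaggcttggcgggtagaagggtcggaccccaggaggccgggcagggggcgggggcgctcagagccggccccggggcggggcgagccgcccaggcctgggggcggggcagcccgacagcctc
A match is a description of letters and not a bound site. The windows of Hes5 and Hey2 are both 71.6% G and C, the Notch1 window 66.0% and the Notch3 window 68.8%.

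The 3 receptors are on chromosome 2 (Notch1, 26313423 to 26372183, minus strand), chromosome 3 (Notch2, 97817461 to 97954290, plus strand) and chromosome 17 (Notch3, 32257765 to 32303825, minus strand) of mm9. The ligands are on chromosome 17 (Dll1, 15504318 to 15513836, minus strand) and chromosome 2 (Jag1, 136907192 to 136942380, minus strand). Of the other repressors, Hes5 is on chromosome 4 (154335032 to 154336480, plus strand), Hes1 on chromosome 16 (30064470 to 30067882, plus strand), Hey1 on chromosome 3 (8663362 to 8667039, minus strand) and Hey2 on chromosome 10 (30552165 to 30562607, minus strand).

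Whether the genotype alters these genes without training was tested in the basal experiment, whose libraries played no part in the choice of the members. None of the 10 members was called in THY-Tau22 against WT mice, where 0.0245% of all genes tested (4 of 16324) were called and 803 had an unadjusted p under 0.05. DESeq2 called 41 genes and no member. Adjusted p ran from 0.901 to 0.968. The estimates were imprecise: the 95% interval of the log2 fold change ran from -0.40 to 0.09 for Hey1, from -0.06 to 0.47 for Notch2, from -0.63 to 0.16 for Hes5, from -0.20 to 0.52 for Notch1 and from -0.32 to 0.49 for Notch3. Notch2 had 35.2, 33.8 and 35.8 CPM in WT and 43.2 and 37.3 CPM in THY-Tau22 mice, and Hey1 had 58.0, 59.9 and 54.2 CPM in WT and 52.3 and 50.5 CPM in THY-Tau22 mice. These were the only 2 members whose groups did not overlap, as for 18.5% of all genes. Heyl overlapped between the genotypes, with a log2 fold change of 0.26 (interval -0.30 to 0.83). Without THY-Tau22 replicate 1, the library with the high mural markers, it was -0.14, and that of Notch3 turned from 0.08 to -0.21.

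**Figure D3:**
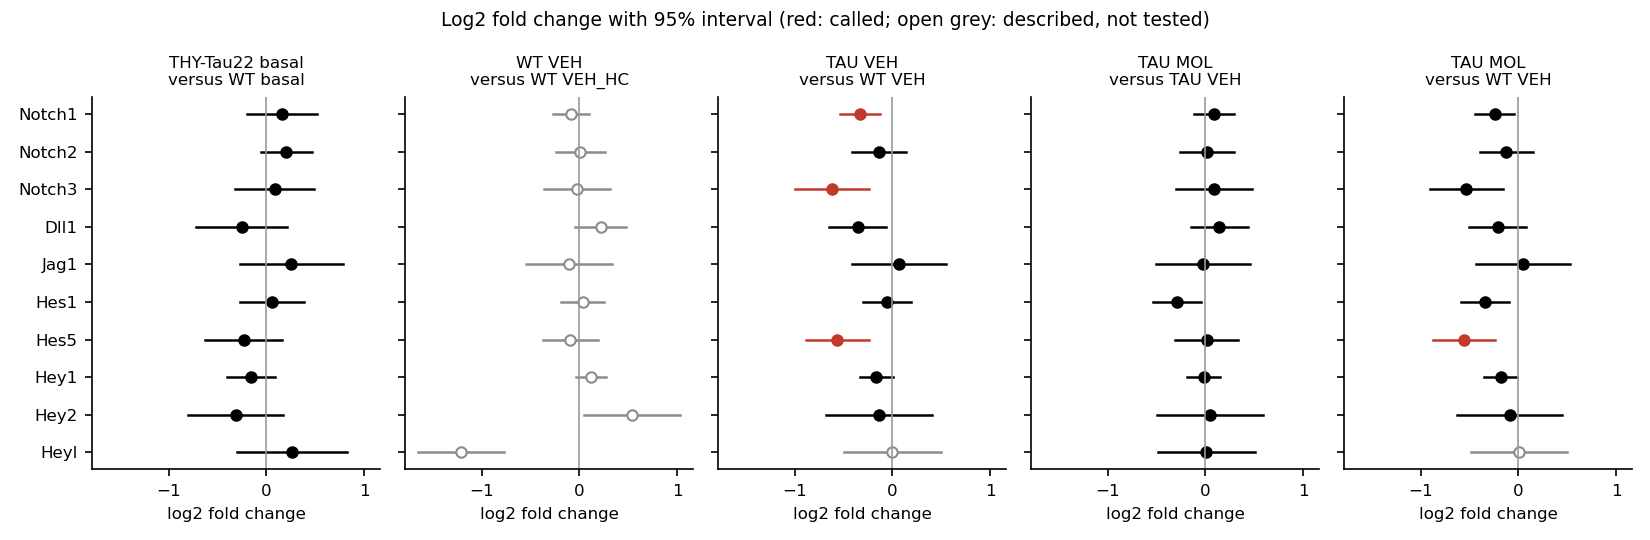
Log2 fold change of the 10 members in each of the 5 comparisons, first group minus second, with its 95% interval from edgeR. Red points were called, black points were tested and not called, and open grey points are described without a test. Hes5, Notch1 and Notch3 were called lower in TAU VEH against WT VEH, and Hes5 in TAU MOL against WT VEH.

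In trained mice, 3 members were lower in THY-Tau22 mice given CSP than in WT mice: the receptors Notch1 and Notch3 and the target gene Hes5. This comparison shares the WT VEH libraries with the one on which the set was chosen, so Heyl is given here as values only. Hes5, a target gene that marks neural stem cells and astrocytes, had 8.34 and 7.50 CPM in WT VEH and 5.13 and 5.62 CPM in TAU VEH. Both TAU VEH libraries lay below both WT VEH libraries and below the WT VEH_HC range of 7.43 to 9.35 CPM, with a log2 fold change of -0.56 (standard error 0.15, edgeR adjusted p = 0.0242). Notch3, the receptor of mural cells, had 19.2 and 17.5 CPM in WT VEH and 11.6 and 12.3 CPM in TAU VEH, a log2 fold change of -0.62 (standard error 0.17, edgeR adjusted p = 0.0347). Notch1, the receptor best known from neural stem cells, had 41.4 and 36.6 CPM in WT VEH and 30.7 and 31.2 CPM in TAU VEH, a smaller log2 fold change of -0.34 (standard error 0.09, edgeR adjusted p = 0.0336). Of all genes, 10.8% were called lower and 3.61% higher, and the median log2 fold change was -0.15 over the 10 members and 0.004 over all genes. The split of all calls depended on the scaling: 74.9% of the genes called were lower with TMM factors and 28.3% with library size alone.

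Among the 6 other members tested, 0 were called. Dll1, a ligand, had 6.89 and 7.81 CPM in WT VEH and 5.55 and 5.96 CPM in TAU VEH, without overlap (log2 fold change -0.36, standard error 0.13, edgeR adjusted p = 0.107). Hey1 had 47.1 and 50.6 CPM against 44.2 and 42.8 CPM (log2 fold change -0.17, edgeR adjusted p = 0.196). Jag1, a ligand of vessel and stem cells, had 5.70 and 5.62 CPM against 5.96 and 5.89 CPM, higher in TAU VEH by less than its standard error (log2 fold change 0.07, standard error 0.22). Hes1, the widely expressed target gene, overlapped between the groups at 9.91 and 11.1 CPM against 9.73 and 10.6 CPM, as did Notch2 and Hey2. In all, groups did not overlap for 6 of the 10 members, near the 57.9% of all genes.

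Several measures moved with the 3 calls. The 3 genes are GC-rich, with an exonic GC content of 63.1% for Hes5, 59.7% for Notch3 and 55.4% for Notch1, against a median of 50.0% over the genes tested, and over all genes the log2 fold change fell with GC content (Spearman's rho -0.517). Once counts were corrected for GC content and length, the log2 fold changes were -0.20 for Hes5, -0.31 for Notch3 and -0.21 for Notch1. Then 0 of the 3 were called (edgeR adjusted p = 0.519, 0.349 and 0.331), where 482 of 16820 genes were called. With library size in place of TMM factors the median of all genes shifted to 0.151. Relative to that shift Hes5 was at -0.57, Notch3 at -0.62 and Notch1 at -0.34, as with TMM. The scaling moves all genes by nearly the same amount, so this agreement is by construction and tests nothing. The differences as fitted (-0.42, -0.47 and -0.19) were not called. With the choroid plexus score as a covariate 0 of the 3 and 0 of 16820 genes were called. The log2 fold changes were then -0.48 for Hes5 and -0.43 for Notch3, with wider standard errors of 0.36 and 0.43, and 0.01 for Notch1 (standard error 0.20). The part of GC content and of choroid plexus tissue in these differences was not tested beyond these fits. With 1 library left out, log2 fold changes ran from -0.64 to -0.48 for Hes5 and from -0.69 to -0.54 for Notch3. That of Notch1 ran from -0.42 to -0.24. The calls did not all hold in fits that leave 1 WT VEH or TAU VEH library, where calls over all genes also fell. Such fits assume that the lone library varies like the other groups and cannot decide the calls.

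Markers of vessel, glial and neuronal cells were followed in the same libraries. Of the 14 mural cell markers, 1 was called lower and 0 higher, and they summed to 170 and 176 CPM in TAU VEH and 190 and 188 CPM in WT VEH. Of the 11 astrocyte markers 2 were called higher and 0 lower, with sums of 6031 and 5987 CPM against 5499 and 5236 CPM, and of the 8 neural progenitor markers 0 were called. Endothelial markers summed to 276 to 299 CPM in TAU VEH and 353 to 354 CPM in WT VEH, with 11 of 12 lower and 0 called. The 8 markers of fibroblasts and meninges summed to 89.0 and 82.7 CPM in TAU VEH and 203 and 161 CPM in WT VEH, with 4 higher and 4 lower and 1 called lower, and their part in the differences was not tested. Of the 8 markers of dorsal hippocampal neurons 2 were called lower, with sums of 999 and 963 CPM against 1255 and 1239 CPM. No marker of these lists was at 0 in any library. Exons of Hes5, Notch1, Notch3 and Dll1 overlap exons of genes on the opposite strand (433 bases with Gm20421 for Hes5, 1068 bases with 0610009E02Rik and a shorter stretch with Gm13568 for Notch1, 488 bases with Gm17276 for Notch3 and 867 bases with A930024N18Rik for Dll1), and the libraries did not keep the strand, so reads from such stretches cannot be told apart.

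**Figure D4:**
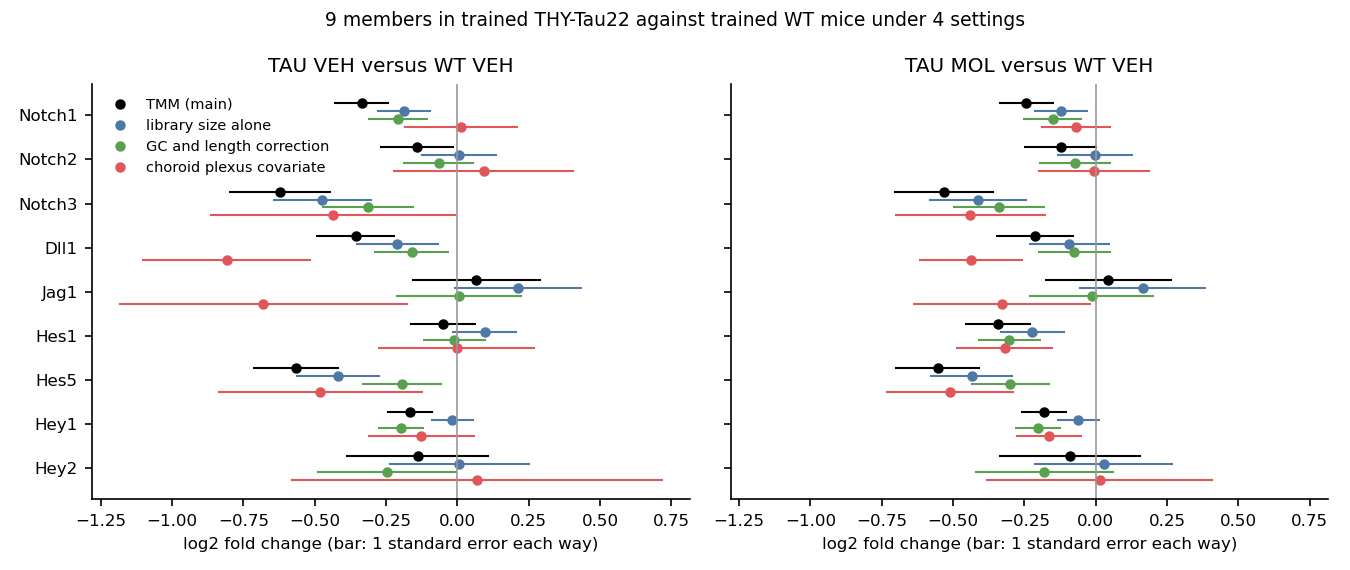
Log2 fold change of the 9 members other than Heyl in trained THY-Tau22 mice against trained WT mice, without (left, TAU VEH) and with CSP-TTK21 (right, TAU MOL), under 4 settings shown by colour. Bars are 1 standard error each way. In TAU VEH, Hes5 moves from -0.56 with TMM to -0.20 with the GC and length correction, and Notch1 reaches 0.01 with the choroid plexus covariate.

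No member was called between treated and carrier-treated THY-Tau22 mice. In TAU MOL against TAU VEH, a comparison between libraries that did not enter the choice of the set (the WT libraries enter the shared estimate of spread), 0 of the 10 members and 0% of all genes were called, while 1064 of 16820 genes had an unadjusted p under 0.05 and DESeq2 called 54 genes, no member among them. Hes1 was the member with the largest difference, with 8.57 and 7.96 CPM in TAU MOL and 9.73 and 10.6 CPM in TAU VEH. Both treated libraries lay below both carrier libraries, with a log2 fold change of -0.29 (interval -0.54 to -0.04, edgeR adjusted p = 0.729). Dll1 was the other member without overlap, with 6.37 and 6.31 CPM in TAU MOL and 5.55 and 5.96 CPM in TAU VEH (log2 fold change 0.14, interval -0.15 to 0.44). Groups did not overlap for these 2 of 10 members and for 38.9% of all genes. The 3 genes called between the genotypes had intervals of -0.32 to 0.34 for Hes5, -0.30 to 0.48 for Notch3 and -0.11 to 0.30 for Notch1. Those of Heyl (-0.49 to 0.50), Hey2 (-0.49 to 0.59) and Jag1 (-0.51 to 0.46) were wider.

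Treated THY-Tau22 mice were also compared with trained WT mice, in a comparison that shares the WT VEH libraries with the preceding ones and the TAU MOL libraries with the last. Hes5 was the only member called, with 4.92 and 5.89 CPM in TAU MOL against 8.34 and 7.50 CPM in WT VEH (log2 fold change -0.55, standard error 0.14, edgeR adjusted p = 0.0475), where 5.02% of all genes were called lower. Lower genes made up 89.1% of all calls with TMM factors and 30.1% with library size alone. Notch3 had 13.2 and 12.2 CPM against 19.2 and 17.5 CPM, without overlap (log2 fold change -0.53, standard error 0.17, edgeR adjusted p = 0.102). Notch1 had 34.8 and 31.2 CPM against 41.4 and 36.6 CPM, also without overlap (log2 fold change -0.24, edgeR adjusted p = 0.164). Hes1 had 8.57 and 7.96 CPM against 9.91 and 11.1 CPM (log2 fold change -0.34, standard error 0.11, edgeR adjusted p = 0.107). Hey1 and Dll1 were lower without overlap as well, so that groups did not overlap for 6 of 10 members, as for 52.5% of all genes. The Hes5 call was lost with median-of-ratios size factors (log2 fold change -0.54, edgeR adjusted p = 0.057) and with library size alone (-0.43, edgeR adjusted p = 0.0858). It was lost with the choroid plexus covariate (-0.51, edgeR adjusted p = 0.332) and with the GC and length correction (-0.30, edgeR adjusted p = 0.402). Of 16820 genes, 842, 1083, 2 and 25 were called in these fits in turn, against 947 in the main one. The Hes5 call was also lost without WT VEH_HC replicate 3 (-0.55, edgeR adjusted p = 0.0543). Without any 1 of the trained libraries it was lost too (-0.69 to -0.43), in fits that leave a lone library in a group and where calls over all genes also fell. DESeq2 gave Hes5 no adjusted p and called Notch3. In the same comparison 14 of 14 choroid plexus markers were lower (9 called) and 12 of 12 endothelial markers were lower (1 called), and their part in the Hes5 difference was not tested beyond the covariate.

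The wider pathway was followed in a list of 61 further genes, from ligands to corepressors, of which 59 were tested (Hes2 and Hes3 did not pass the filter). In basal THY-Tau22 against WT mice edgeR called 0 of the 59 (1 at an unadjusted p under 0.05), with a median log2 fold change of -0.02. DESeq2 called 1 lower there (41 of all genes), as did edgeR on all genes with at least 1 count (125 of all genes). In TAU VEH against WT VEH 17 were called lower (28.8%, against 10.8% of all genes) and 2 higher (3.39%, against 3.61%), with a median log2 fold change of -0.20. With library size in place of TMM factors these counts were 12 lower and 11 higher, where 1020 of 16820 genes were called lower and 2578 higher. Without TAU VEH replicate 1 they were 11 lower and 0 higher, where 814 of 17282 genes were called lower and 101 higher. Without TAU VEH replicate 2 they were 12 lower and 0 higher, where 1037 of 17173 genes were called lower and 195 higher. Genes called lower included Neurl1a, a ubiquitin ligase for Notch ligands (log2 fold change -0.71, edgeR adjusted p = 0.00179), and Nrarp, a Notch target gene whose product limits Notch signalling (-0.57, edgeR adjusted p = 0.0059). Nrarp fell from a mean of 22.0 CPM in WT VEH to 14.9 CPM in TAU VEH. The 2 genes that were higher are the ubiquitin ligases Mib1, which acts on ligands (log2 fold change 0.29, edgeR adjusted p = 0.0396), and Itch, which acts on receptors (0.27, edgeR adjusted p = 0.0426). Neither was called without WT VEH replicate 2 or without any 1 of the TAU VEH or TAU MOL libraries, and Itch was also not called without WT VEH replicate 1.

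By role, 3 of the 4 genes of ligand ubiquitination (Mib2, Neurl1a and Neurl1b) and 5 of the 10 genes of receptor ubiquitination and inhibition were called lower, and so were 2 of 7 gamma-secretase genes (Aph1a and Psen2), 3 of 12 corepressors, 1 of 9 genes of the nuclear complex (Kat2a), the ligand Jag2, the protease Furin and the glycosyltransferase Rfng. Rbpj, the Mastermind genes, Crebbp and Ep300 were not among the genes called. GC content moved with direction in this list too: GC content of the 17 lower genes ran from 53.7% to 63.8% with a median of 56.2%, whereas Mib1 had 43.2% and Itch 41.1%. The 59 tested genes had a median of 54.0%, against 50.0% over all genes tested. The shares of 28.8% and 10.8% called lower thus compare sets that differ in GC content. The part of GC content in this was not tested beyond the correction. With the GC and length correction 1 of the 59 was called lower and 0 higher, where 400 of 16820 genes were called lower and 82 higher. Nrarp then had a log2 fold change of -0.43 (edgeR adjusted p = 0.0553).

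**Figure D5:**
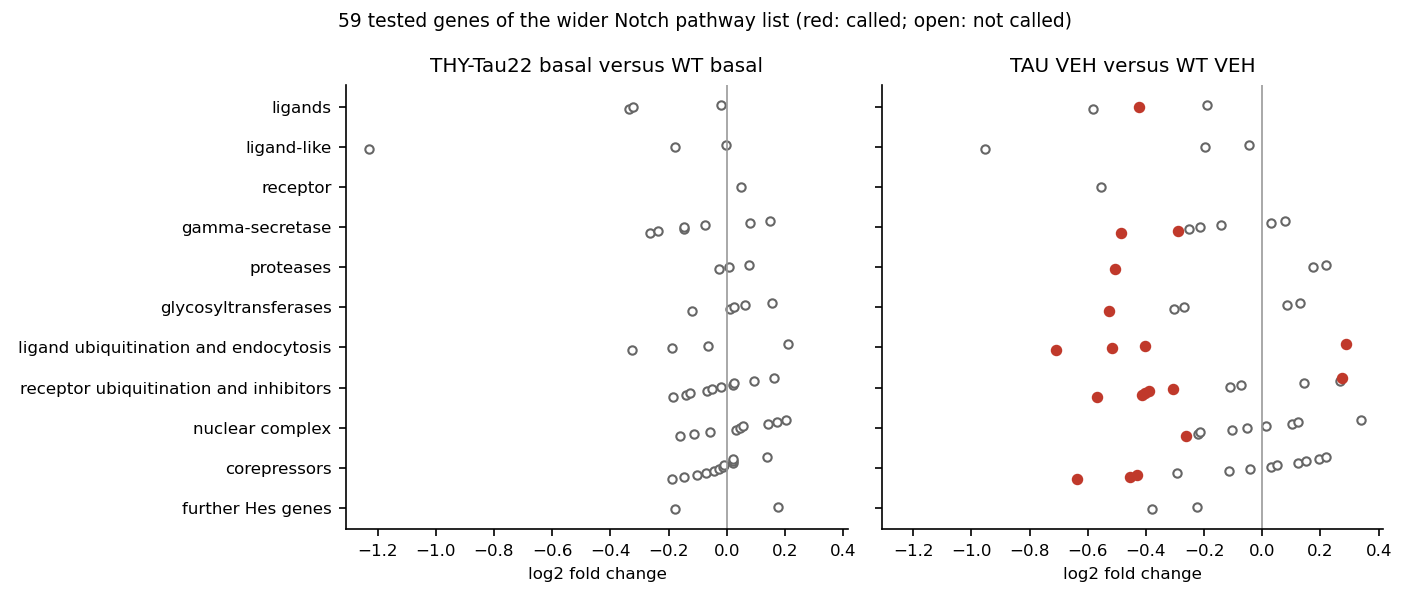
Log2 fold change of the 59 tested genes of the wider pathway list by role, in basal (left) and trained (right) THY-Tau22 against WT mice. Red points were called and open points were not. All 59 are open in the basal comparison, and 17 lower and 2 higher genes are red in the trained one.

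In TAU MOL against WT VEH, 8 of the 59 were called lower (13.6%, against 5.02% of all genes) and 0 higher with TMM factors, and 6 lower and 5 higher with library size alone, where 326 of 16820 genes were called lower and 757 higher. The largest decreases were Nrarp (log2 fold change -0.69, edgeR adjusted p = 0.00996), Neurl1a (-0.68, edgeR adjusted p = 0.00996) and Neurl1b (-0.53, edgeR adjusted p = 0.0116). In TAU MOL against TAU VEH, edgeR and DESeq2 called 0 of the list, where 0 of 16820 and 54 of 25933 genes were called. In edgeR 4 of the list had an unadjusted p under 0.05, as had 1064 of 16820 genes. On all genes with at least 1 count edgeR called 1 of the list, where 233 of 25933 genes were called. In TAU MOL against WT VEH with 1 library left out, the log2 fold change of Nrarp ran from -0.715 to -0.65. That of Neurl1a ran from -0.752 to -0.616 and that of Neurl1b from -0.583 to -0.464. The calls were lost in fits that leave 1 WT VEH or TAU MOL library, as were nearly all calls over all genes. With the GC and length correction 0 of the 59 were called in TAU MOL against WT VEH, where 25 of 16820 genes were called. For the training comparison, given as a description, 4 of the 59 (6.78%, against 5.35% of all genes) passed the limits as higher in WT VEH than in WT VEH_HC, with the largest log2 fold changes for the acetyltransferase Kat2b (0.63), the gamma-secretase subunit Aph1b (0.42) and the corepressor Spen (0.36). Dtx3, a Deltex family gene, was the 1 that passed as lower (-0.22), or 1.69% against 3.05% of all genes. With 1 library left out, log2 fold changes ran from 0.528 to 0.706 for Kat2b and from 0.325 to 0.516 for Aph1b. Those of Spen and Dtx3 ran from 0.243 to 0.473 and from -0.235 to -0.207. The limits were no longer passed by this list in the fit without WT VEH replicate 1, nor by most of all genes that had passed. With the choroid plexus covariate, under which 0 of 16820 genes were called, Kat2b and Spen changed sign.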

How the data were processed

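Poly-A RNA-seq libraries from the dorsal hippocampus were sequenced by the authors as single-end reads of 50 bases without strand. Per the labels and the submitters' processing notes, reads were processed with CASAVA 1.8.2, aligned to mm9 with TopHat2 2.0.10 and Bowtie2 2.1.0 and counted on Ensembl genes with HTSeq 0.5.4p3. The authors deposited these raw counts, used for all tests, beside a normalized signal (counts divided by 1 factor per library), which was not used for tests. Libraries that the authors had excluded were not analysed here. The learning table also holds 138 empty lines, which were left out.

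Groups and replicate numbers came from the sample titles. Genes kept by filterByExpr were tested with the quasi-likelihood F test of edgeR 4.0.16 (R 4.3.3) after TMM scaling, and p-values were adjusted by the Benjamini-Hochberg method. A model was fitted to the 9 learning libraries and another to the 5 basal ones. Standard errors were taken from the log2 fold change and F, and 95% intervals from the t distribution with the test's degrees of freedom. Log2 CPM carry a prior count of 1. The estimated fold changes were checked on simulated counts with planted changes. These counts carried no GC dependence and no choroid plexus differences, so the check says nothing of the calls under either. Gene positions, exon length and GC content came from NCBIM37 with GENCODE M1. Alternatives were DESeq2 1.42.0, median-of-ratios factors, library size alone, other count filters (at least 1 count, or a mean of 10), the replicate number as a block, a loess correction for GC content and exon length (span 0.3), a choroid plexus score (the average over 14 markers, log2 CPM) as a covariate, only the groups compared, and leaving out each library. Figures were made with matplotlib 3.10.9.

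The members, the gene lists and the rules were chosen with earlier results of these data known. Named genes are the 10 members, the 3 largest increases and decreases among called pathway genes with a mean of at least 50 counts, and the 5 genes most correlated with Heyl. A gene that this rule names is not reported here. Other pathway genes that were called are named by role, and this was chosen after their values were seen.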

Additional observations from a re-analysis of the deposited data

How the results depend on the processing

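In the training comparison, on which the set was chosen and whose values support nothing, the log2 fold change of Heyl ran from -1.32 to -0.97 with 1 library left out. The limits that Heyl passed there were passed by 0 members with the choroid plexus covariate and by 0 to 1 with 1 library left out. In TAU VEH against WT VEH, 0 of the 3 members remained called with library size alone, with the GC and length correction, with the replicate block and that correction together, and with the choroid plexus covariate, and 0 to 3 were called with 1 library left out. In TAU MOL against WT VEH the count went from 1 to 0 under the same 4 settings and with median-of-ratios size factors, to 2 (Hes5 and Notch3) with genes of at least 1 count or with only the 2 groups, and to 0 to 2 with 1 library left out. The basal comparison and TAU MOL against TAU VEH had 0 members called under every alternative run. The cause of these changes was not tested.

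The replicate block changed no count of members called in the 4 comparisons that were tested (0 in the basal one, 3 in TAU VEH against WT VEH, 0 in TAU MOL against TAU VEH and 1 in TAU MOL against WT VEH), while all genes called went from 1413 to 3000 after training and from 4 to 37 in the basal comparison. The deviations of same-numbered libraries did not correlate above 0.1 in every pair (r from -0.0394 to 0.243 in the learning experiment and of -0.0647 and -0.161 in the basal one), so the numbers were not taken as pairs.

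Signs turned as follows, in log2 fold change. After training, Notch2 was at -0.0243 and Notch3 at 0.0162 with the replicate block, Notch1 at 0.0669 and Notch3 at 0.0793 with the GC and length correction, Notch1 at 0.156 and Notch3 at 0.129 with both, and Hes1 at -0.0364, Notch2 at -0.327 and Jag1 at 0.986 with the choroid plexus covariate, under which Heyl was at -0.611 in TAU VEH against WT VEH and -0.296 in TAU MOL against WT VEH. With library size alone, TAU VEH against WT VEH gave 0.00657 for Hey2, 0.0962 for Hes1 and 0.006 for Notch2, TAU MOL against TAU VEH gave -0.0172 for Heyl, -0.0158 for Hes5 and -0.00867 for Notch2, and TAU MOL against WT VEH gave 0.028 for Hey2. In TAU MOL against TAU VEH, the GC and length correction gave -0.0359 for Heyl, -0.104 for Hes5, -0.00613 for Notch2 and -0.0245 for Notch3, with the replicate block added -0.0501, -0.11, -0.00457 and -0.0266, the replicate block alone -0.00549 for Heyl, and only the 2 groups -0.00229 for Heyl. In TAU MOL against WT VEH, Jag1 was at -0.0138 with the correction and -0.0202 with the block added. With the choroid plexus covariate, Kat2b was at -0.141 and Spen at -0.185 after training. TAU VEH against WT VEH then gave 0.0695 for Hey2, 0.013 for Notch1, 0.0918 for Notch2 and -0.681 for Jag1. TAU MOL against TAU VEH gave -0.0554 for Hey2, -0.0315 for Hes5, -0.0828 for Notch1, -0.0963 for Notch2, -0.00434 for Notch3 and 0.352 for Jag1, and TAU MOL against WT VEH gave 0.0141 for Hey2 and -0.329 for Jag1. With 1 library left out, the range crossed 0 after training for Hes1 (-0.0465 to 0.112), Notch2 (-0.264 to 0.24), Notch3 (-0.193 to 0.135) and Jag1 (-0.234 to 0.187), for Heyl in TAU VEH (-0.0544 to 0.0635) and TAU MOL against WT VEH (-0.0444 to 0.0754), in the basal comparison for Heyl (-0.139 to 0.586) and Notch3 (-0.215 to 0.346), in TAU VEH against WT VEH for Hey2 (-0.374 to 0.152), Notch2 (-0.371 to 0.14) and Hes1 (-0.122 to 0.0287), in TAU MOL against TAU VEH for Hey1 (-0.0473 to 0.0156), Hes5 (-0.121 to 0.137), Notch2 (-0.018 to 0.0548), Heyl (-0.0281 to 0.0483), Hey2 (-0.238 to 0.298) and Jag1 (-0.119 to 0.0736), and in TAU MOL against WT VEH for Hey2 (-0.38 to 0.205), Notch2 (-0.351 to 0.162) and Jag1 (-0.0536 to 0.139).

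Counts over all genes also moved. With the choroid plexus covariate, 0 genes were called after training and 0 in TAU VEH against WT VEH. With the GC and length correction the 2423 genes of TAU VEH against WT VEH became 482, and the 947 of TAU MOL against WT VEH became 25. Pathway genes called in TAU VEH against WT VEH went from 19 to 1 with that correction, 8 with the replicate block added and 0 with the choroid plexus covariate. In the same fits 482, 776 and 0 of 16820 genes were called. In TAU MOL against WT VEH the 8 pathway genes became 15 with DESeq2 (1324 of 25933 genes called) and 14 with only the 2 groups (1490 of 16209). The 5 that passed after training became 11 with the replicate block (3000 of 16820 genes) and 3 with the correction (786 of 16820). With only the 2 groups they became 1 (310 of 16426). The main fits called 947 and 1413 of 16820 genes in these 2 comparisons. The pathway alternatives were chosen after seeing the data.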
